A study of Homo sapiens with 20 samples.

Results

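The genes described here encode enzymes that oxidise alcohol and the aldehydes made from it, in HepaRG cells. They are 10 genes of the 22221 genes tested: the alcohol dehydrogenases ADH1A, ADH1B, ADH1C, ADH4, ADH5 and ADH6, the aldehyde dehydrogenases ALDH2, ALDH1A1 and ALDH1B1, and the cytochrome P450 CYP2E1. They were chosen by their role, with earlier results of these data known, and their probes are all probes of the array whose accession belongs to one of these symbols, which gave 12 of 42405 probes. ADH6 and ALDH1A1 have 2 probes each and the other 8 genes have 1 probe. The probe with the highest mean over the arrays stood for its gene, and all 10 genes passed the filter on dim probes.

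In the liver, alcohol dehydrogenases in the cytosol convert ethanol to acetaldehyde, and ALDH2 in the mitochondria converts acetaldehyde to acetate. CYP2E1, an enzyme of the endoplasmic reticulum, oxidises ethanol by a separate route that also handles small solvents and drugs such as acetaminophen. Several of these enzymes act on retinol and retinal as well, and the genes for the class I alcohol dehydrogenases are among those that mark mature hepatocytes.

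HepaRG is a hepatoma cell line whose progenitors become hepatocyte-like and biliary-like cells in one culture, so each RNA sample is a mixture. All cultures were kept in William's E medium with serum, insulin and hydrocortisone. Cells were collected at day 4 (D4), a progenitor stage, at day 15 (D15), and at day 30 without DMSO (D30 − DMSO) or with 2% DMSO from day 15 on (D30 + DMSO). The last group, D34 ± DMSO, had 2% DMSO until day 30 and was then kept for 4 days without it. The study's methods describe the 4 arrays of each condition as independent biological replicates.

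RNA was labelled with Cy3 and hybridised to 20 one-color arrays, which lie on 4 slides. Each array was scaled to the 75th percentile of its own processed signal, which was between 407 and 766 intensity units, so a log2 value of 0 is that percentile. Between 61.1% and 74.2% of the spots of an array were well above background, and the correlation of replicate arrays over the genes was between 0.955 and 0.992. Slide 4 holds replicate 4 of every condition and replicate 3 of D15 and of D30 + DMSO. The hepatocyte markers (ALB, TTR, APOA1 and 7 others) were well above background on all arrays, 10 of 10 also at D4. Of the biliary and progenitor markers, 7 of 10 were tested, and EPCAM, CFTR and PROM1 did not pass the filter on dim probes. A gene was called higher or lower between a pair of conditions where limma gave an adjusted p under 0.005 and the change was over 2-fold.

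The 6 ADH genes are neighbours on chromosome 4, in the order ADH5, ADH4, ADH6, ADH1A, ADH1B and ADH1C. The class I genes ADH1A, ADH1B and ADH1C code for closely similar enzymes, and their promoters are related in sequence. The 250 bases before the start of each are printed from RefSeq (GRCh38.p14), 5′ to 3′ on the gene's strand, at chr4:99290986-99291235 for ADH1A, chr4:99321402-99321651 for ADH1B and chr4:99352747-99352996 for ADH1C, all on the minus strand. Capitals in ADH1B and ADH1C mark bases that differ from ADH1A in an alignment.
ADH1A promoter: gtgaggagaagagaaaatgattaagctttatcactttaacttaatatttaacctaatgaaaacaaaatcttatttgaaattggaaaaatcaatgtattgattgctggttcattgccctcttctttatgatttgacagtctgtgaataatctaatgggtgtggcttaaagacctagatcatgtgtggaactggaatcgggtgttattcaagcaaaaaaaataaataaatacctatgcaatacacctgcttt
ADH1B promoter: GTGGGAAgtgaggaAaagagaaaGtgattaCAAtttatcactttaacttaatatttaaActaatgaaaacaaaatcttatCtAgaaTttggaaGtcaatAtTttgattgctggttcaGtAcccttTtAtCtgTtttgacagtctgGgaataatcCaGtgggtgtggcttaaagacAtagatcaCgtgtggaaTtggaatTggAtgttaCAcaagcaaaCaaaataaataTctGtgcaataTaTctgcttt
ADH1C promoter: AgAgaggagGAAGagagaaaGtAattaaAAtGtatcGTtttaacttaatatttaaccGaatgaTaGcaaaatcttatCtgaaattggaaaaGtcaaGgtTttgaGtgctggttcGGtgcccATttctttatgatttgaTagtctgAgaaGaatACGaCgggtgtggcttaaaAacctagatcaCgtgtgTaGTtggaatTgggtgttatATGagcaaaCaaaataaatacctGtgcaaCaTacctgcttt
Over the aligned columns, ADH1B was identical to ADH1A in 81.4%, with 16 gap columns, and ADH1C in 80.7%, with 8 gap columns. The probe sequences were not used here, so the share of each class I signal that comes from the neighbouring copies was not tested and the 3 genes cannot be fully told apart.

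Of the 10 genes, 9 matched an entry of the RefSeq promoter table of 35116 promoters, and ALDH2 did not. The promoter of CYP2E1, at chr10:133527113-133527362 on the plus strand, is shown because CYP2E1 moved most with DMSO. Its capitals mark the hexamer AGGTCA, which many nuclear receptors bind, whose first base is at −181 from the start, and a TATA box (TATAAA) at −30. The promoter of ADH5, at chr4:99088789-99089038 on the minus strand, is shown beside it as the ADH gene that was not called between D4 and D15, and it holds none of the motifs searched.
CYP2E1 promoter: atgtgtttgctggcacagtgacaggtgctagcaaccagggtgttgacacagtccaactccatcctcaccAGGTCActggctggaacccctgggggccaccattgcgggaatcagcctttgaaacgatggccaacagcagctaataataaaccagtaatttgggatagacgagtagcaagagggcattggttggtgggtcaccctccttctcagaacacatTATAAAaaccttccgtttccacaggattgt
ADH5 promoter: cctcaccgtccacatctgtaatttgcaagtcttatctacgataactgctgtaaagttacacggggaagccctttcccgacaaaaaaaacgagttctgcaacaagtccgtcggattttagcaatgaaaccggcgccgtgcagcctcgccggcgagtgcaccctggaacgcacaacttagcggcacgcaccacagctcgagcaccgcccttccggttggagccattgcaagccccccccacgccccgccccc
Both strands were searched for these 2 motifs and for the HNF1 hexamer GTTAAT, and the motifs do not overlap each other in these windows. AGGTCA was found in 12.1% and GTTAAT in 6.23% of all promoters of this length, and TATAAA in 3763 of the 35116. ADH4 held GTTAAT at −249 and TATAAA on the opposite strand at −238 and −207, and the other 7 promoters held none of the 3. No match says only that these letters are not in this window.

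The promoters also differ in base composition. ADH1A, ADH1B, ADH1C, ADH4 and ADH6 had a GC content between 31.6% and 36.4%, with 1 CpG dinucleotide each apart from ADH1C with 6. ALDH1A1 had 38.4% GC and 6 CpGs, and CYP2E1 had 50.4% and 4. ADH5, which codes for the enzyme of formaldehyde and glutathione metabolism that most tissues make, had 58% GC and 21 CpGs. ALDH1B1, a mitochondrial aldehyde dehydrogenase close to ALDH2, had 70.4% and 23. The median over all promoters was 58% GC and 11 CpGs.

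**Figure D1:**
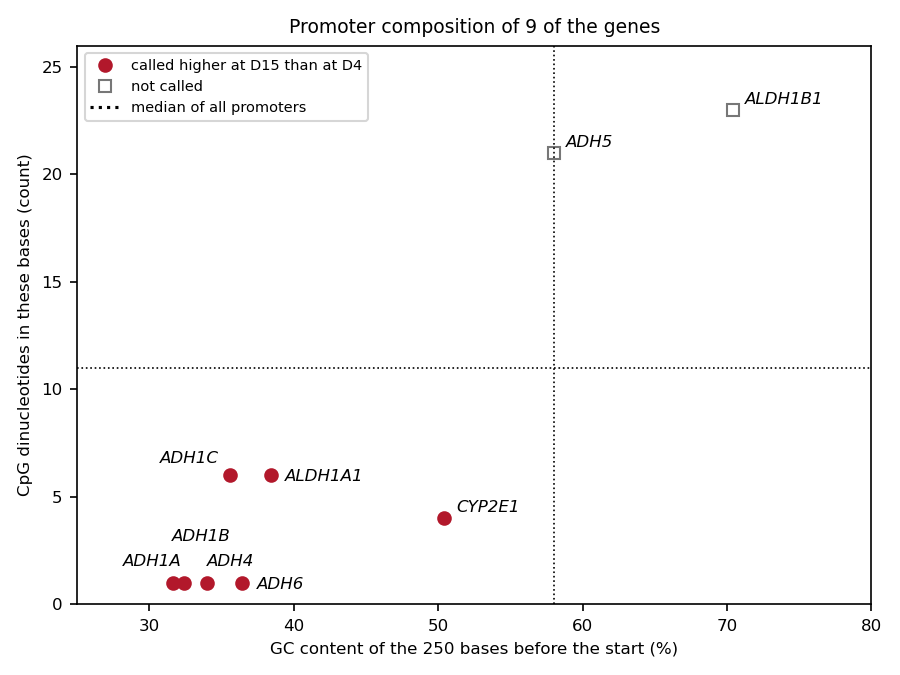
GC content (x axis, percent) against the number of CpG dinucleotides (y axis, count) in the 250 bases before the start of 9 genes, 1 point per gene. ADH5 and ALDH1B1, with 21 and 23 CpGs, are the squares, which were not called between D4 and D15, and the circles with 1 to 6 CpGs were called higher at D15. ALDH2, also called higher at D15, had no promoter entry and is not drawn. A relation between base composition and the calls was not tested.

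The class I alcohol dehydrogenases, which carry most of the ethanol oxidation of the liver, had their lowest levels at D4, where ADH1A and ADH1C were measured above background on all 4 arrays and ADH1B on none. ADH1B (NM_000668) had log2 values of −9.14, −8.24, −7.60 and −7.10 at D4. At D15 it was at 1.34, 1.57, 0.88 and 1.19. No other pair of neighbouring conditions was as far apart. Its D30 − DMSO arrays were at 1.97, 2.09, 2.06 and 0.88, its D30 + DMSO arrays at 3.23, 3.04, 2.40 and 1.87, and its D34 ± DMSO arrays at 2.30, 1.38, 1.46 and 0.23. The D30 and D34 groups overlapped, and replicate 4 was the lowest in each of them.

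ADH1A (NM_000667) was well above background on all arrays and ranged from −5.40 to −3.09 at D4 and from 2.77 to 3.59 at D15. It then ranged from 3.51 to 4.04 at D30 − DMSO, from 4.40 to 4.95 at D30 + DMSO and from 3.34 to 4.45 at D34 ± DMSO. ADH1C (NM_000669) followed the same order, with −2.52 to −1.19 at D4 and 4.24 to 4.86 at D15. Its values were 4.68 to 5.23 at D30 − DMSO, 5.61 to 5.93 at D30 + DMSO and 4.41 to 5.51 at D34 ± DMSO. For both genes, the 4 arrays of D30 + DMSO lay above the 4 of D30 − DMSO, by a small margin.

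ADH4 (NM_000670), a liver enzyme that oxidises ethanol at high concentrations and also retinol, had values of −5.13, −3.33, −5.71 and −3.94 at D4 and of 2.55, 2.73, 2.38 and 2.57 at D15. At D30 it was at 3.55, 3.46, 3.49 and 2.59 without DMSO and at 4.86, 4.48, 4.14 and 3.39 with it. At D34 ± DMSO it was at 3.95, 3.37, 3.35 and 2.19. Apart from replicate 4, at 3.39, the arrays with DMSO lay above all arrays of D30 − DMSO.

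ADH6 (NM_000672), a liver-expressed member of a class of its own, was above background on 2 of 4 arrays at D4, with values between −7.04 and −4.71. From D15 on all its arrays lay in a narrow band between −0.73 and 0.66. Its second probe gave lower signals, with 1 of 4 arrays above background at D4 and values between −3.89 and −2.76 afterwards. ADH5 (NM_000671) was well above background on all 20 arrays and stayed between 0.71 and 1.95. Its D4 arrays (1.04 to 1.78) and D15 arrays (1.12 to 1.70) covered almost the same range.

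ALDH2 (NM_000690), the main enzyme for acetaldehyde, was at 0.91, 1.31, 0.95 and 1.55 at D4 and at 3.24, 3.51, 3.49 and 3.74 at D15. Its D30 − DMSO arrays, at 3.51, 3.45, 3.60 and 3.37, lay within the D15 range. The D30 + DMSO arrays were at 4.81, 4.91, 5.29 and 5.30, above every other array of the series. At D34 ± DMSO ALDH2 was at 3.62, 3.48, 3.26 and 3.24, so these arrays overlapped those never given DMSO.

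ALDH1A1 (NM_000689), a cytosolic enzyme that makes retinoic acid from retinal, ranged from 3.82 to 4.86 at D4, from 5.26 to 6.02 at D15 and from 5.52 to 5.56 at D30 − DMSO. It was at 5.60, 5.76, 6.04 and 5.79 at D30 + DMSO and from 5.01 to 5.46 at D34 ± DMSO. The second ALDH1A1 probe gave lower signals, from −0.56 to 1.55 at D4 and from 1.40 to 2.63 at D15. It ranged from 1.40 to 1.93 at D30 − DMSO, from 1.28 to 2.50 at D30 + DMSO and from 0.31 to 1.80 at D34 ± DMSO. On this probe every group overlapped the others. ALDH1B1 (NM_000692) ranged from 0.71 to 1.44 at D4 and from 0.14 to 0.73 over the other conditions. It was the only gene of the 10 whose highest group mean was that of D4.

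CYP2E1 (NM_000773) had values of −7.20, −9.14, −8.21 and −9.14 at D4, none of them above background. At D15 its values were −4.31, −4.77, −5.39 and −4.03, and 3 of 4 arrays measured it above background. At D30 − DMSO it was at −2.43, −2.79, −2.67 and −4.42, where replicate 4 lay among the D15 values. The D30 + DMSO arrays stood far above all others at 1.54, 1.65, 1.75 and 1.77, with a coefficient of variation of 7.11% in the signal against 45.3% at D30 − DMSO. At D34 ± DMSO CYP2E1 was at −1.46, −1.40, −2.48 and −2.29, which is below every array with DMSO and overlaps the arrays never given it.

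**Figure D2:**
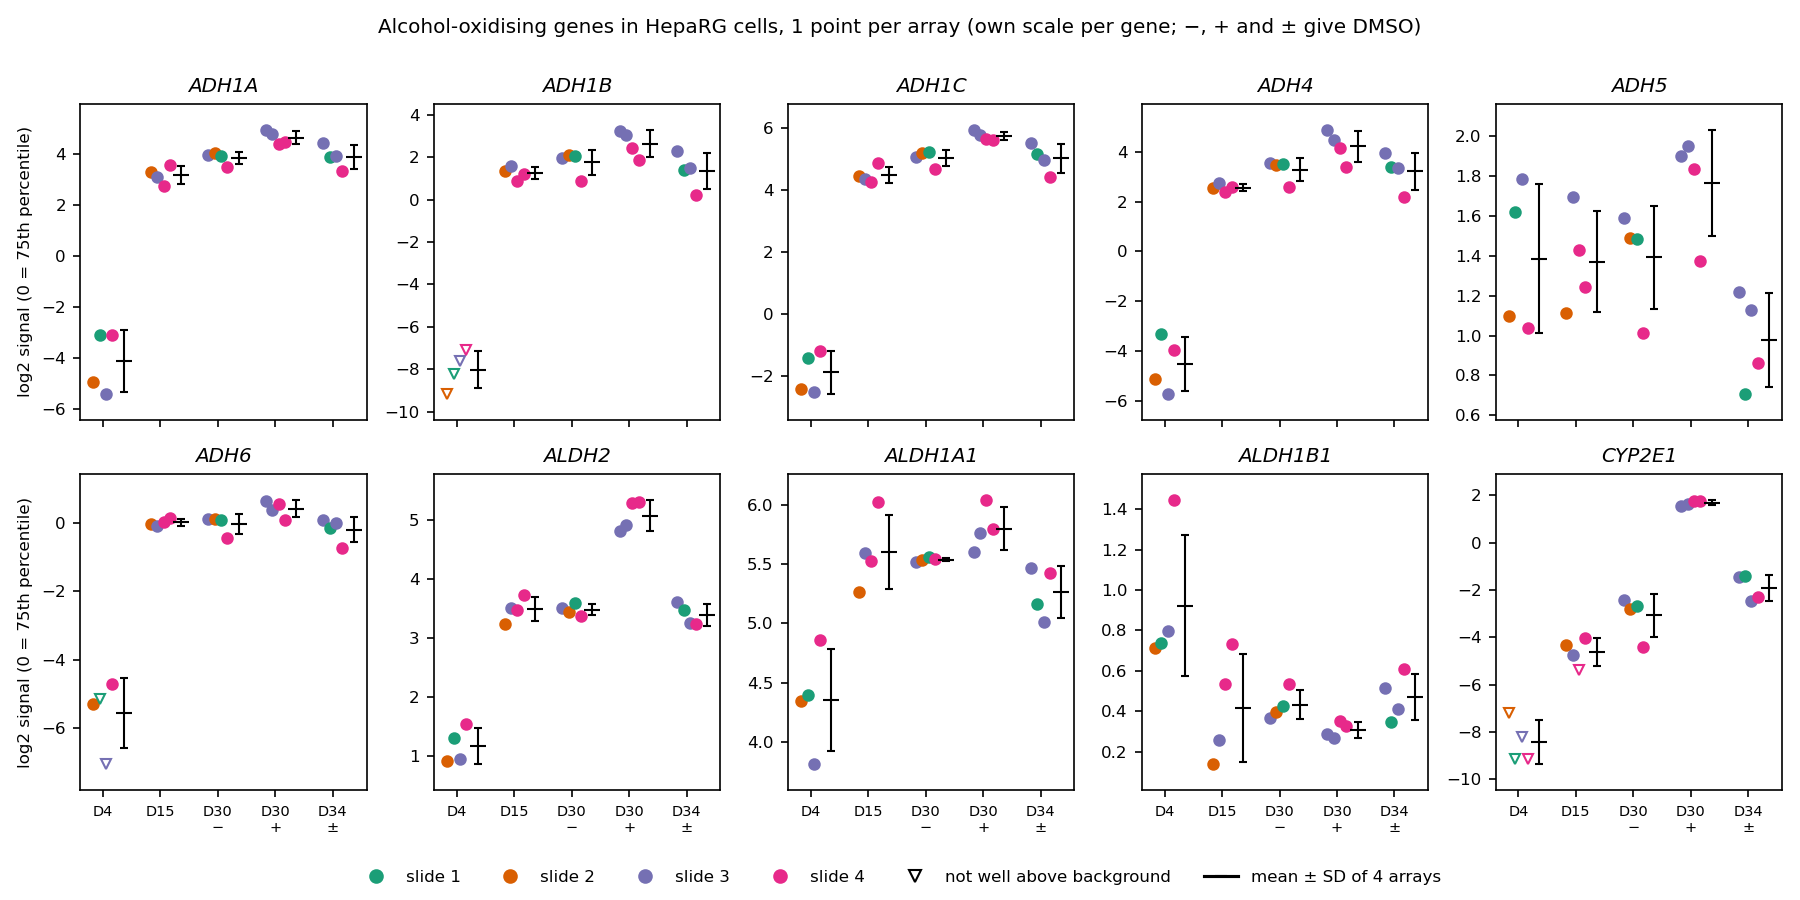
Log2 signal of the 10 genes (y axis, 0 is the 75th percentile of the array, each gene on its own scale) in the 5 conditions (x axis), 1 point per array colored by slide, with the mean ± SD of 4 arrays beside them. Open triangles are arrays on which the probe was not well above background, and the D30 + DMSO arrays of CYP2E1, at 1.54 to 1.77, and of ALDH2, at 4.81 to 5.30, stand above all other arrays of these genes.

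Between D4 and D15, before any DMSO was added, 8 of the 10 genes rose and none fell. Over all genes tested, 5.76% were called higher and 3.66% lower. The 5 liver-type alcohol dehydrogenases had the largest fitted rises, and ADH5 and ALDH1B1 were not called. On the log2 scale ADH1A rose by 7.33 (SE 0.41, n = 4, adjusted p = 5.8e-10, limma). ADH4 rose by 7.09 (SE 0.45) and ADH1C by 6.37 (SE 0.28). ADH6 rose by 5.57 (SE 0.34), and its second probe by 4.83 (SE 0.63). Counted against the dimmest signal of any probe still above background at D4, ADH1B was 196-fold higher at D15 (adjusted p of the fit 1.3e-10) and CYP2E1 3.37-fold (3.8e-06). These bounds are tied to the scale and are not strict, since a probe's own limit can lie higher. On replicate 3 of D15, CYP2E1 at −5.39 was not above background, while the dimmest signal above background there was −6.43. Normexp, which adds an offset to every signal, gave log2 differences of 4.47 for ADH1B and 0.57 for CYP2E1.

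Of the aldehyde dehydrogenases, ALDH2 was 4.98-fold higher at D15 (log2 2.32, SE 0.16, adjusted p = 7.4e-09) and ALDH1A1 2.37-fold higher (log2 1.25, SE 0.19, adjusted p = 7.4e-05). The second ALDH1A1 probe gave a difference of 1.36 (SE 0.41) with an adjusted p of 0.0199 and was not called. ADH5 differed by −0.01 on the log2 scale, with a 95% interval from −0.43 to 0.41, and ALDH1B1 by −0.51 (adjusted p = 0.0241). The median log2 change was 4.69 over the 10 genes, or 3.95 with ADH1B and CYP2E1 at their bounds, against 0.04 over all genes. The groups did not overlap for 8 of the 10 genes, all higher at D15, against 12.8% of all genes. On the second ALDH1A1 probe they overlapped.

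Markers of cell type and of the cell cycle moved in the same comparison. All 10 hepatocyte markers rose between D4 and D15, and their summed signal went from between 88922 and 185353 intensity units to between 855904 and 1235690. The 10 proliferation markers (MKI67, TOP2A, CDK1 and others) all fell. In such bulk RNA, fewer cells of a type and less RNA per cell cannot be told apart, and the part of the cell mixture in these results was not tested. On each of the 3 slides that hold both conditions, the 8 genes were higher at D15. CYP2E1 was no longer called with normexp background correction (log2 0.57, adjusted p = 0.0412) or with a floor of 10 intensity units (log2 1.19, adjusted p = 0.0213). The methods' t-test did not call CYP2E1 with Benjamini-Hochberg adjustment (adjusted p = 0.0066), but did so without adjustment. ALDH1A1 was no longer called in a fit of only these 8 arrays (adjusted p = 0.0072) or in the methods' t-test (adjusted p = 0.0258), and normexp lowered the rises of ADH1A to 5.83, of ADH4 to 5.45, of ADH1B to 4.47 and of ADH6 to 3.11.

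From D15 to D30 without DMSO, none of the 10 genes was called in limma, and 0.0045% of all genes were. CYP2E1 was the only one of the 10 genes with an unadjusted p below 0.05, with a log2 difference of 1.54 (SE 0.45) and an adjusted p of 0.807. Leaving out replicate 4 of D30 − DMSO raised this difference to 1.99 (adjusted p = 0.18). The class I genes and ADH4 differed by between 0.51 and 0.71, higher at D30, and their intervals all included no difference. For ALDH2 the fold at D30 over D15 had a 95% interval from 0.78 to 1.26. The methods' t-test called none of the 10 genes either, with or without adjustment.

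The comparison of D30 + DMSO with D30 − DMSO asks what the presence of DMSO adds at the same age. CYP2E1 and ALDH2 rose, and the other 8 genes were not called, against 1.71% of all genes called higher and 4.15% called lower. CYP2E1 was 27.0-fold higher with DMSO (log2 4.76, SE 0.45, 95% interval of the fold 14.0 to 52.2, adjusted p = 7.4e-07). ALDH2 was 3.02-fold higher (log2 1.60, SE 0.16, 95% interval 2.38 to 3.84, adjusted p = 1.8e-06). The enzyme of the P450 route and the enzyme for acetaldehyde passed the test, and none of the alcohol dehydrogenases did.

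The 6 alcohol dehydrogenases were each higher on average with DMSO, by less than 2-fold in the fit over all arrays. ADH4 differed by 0.95 (SE 0.45, adjusted p = 0.175) and ADH1B by 0.89 (SE 0.45, adjusted p = 0.206). ADH1A differed by 0.80 (SE 0.41, adjusted p = 0.218) and ADH1C by 0.70 (SE 0.28, adjusted p = 0.0923). For the fold of ADH4 the 95% interval ran from 0.999 to 3.72. Within the slides that hold both conditions, ADH4 differed by 1.12 and 1.18, ADH1B by 1.16 and 1.25, ADH1A by 0.90 and 0.94, and ADH1C by 0.78 and 0.96. Each of these slides holds only 1 D30 − DMSO array. On slide 4 it is replicate 4, the lowest of its group for each of these genes (0.88 for ADH1B and 2.59 for ADH4). With the slide as a block, the difference of ADH4 was 1.11 (adjusted p = 0.0725) and that of ADH1C 0.76 (adjusted p = 0.0661), and neither was called. ADH5 differed by 0.37, ADH6 by 0.44 and ALDH1A1 by 0.26, and ALDH1B1 was lower by a log2 difference of −0.13. The 4 arrays with DMSO lay above the 4 without for ADH1A, ADH1C, ALDH2, ALDH1A1 and CYP2E1, 5 of 10 genes against 12.5% of all genes. They lay below the 4 without for ALDH1B1, 1 of 10 against 12.6%. On the second ALDH1A1 probe the groups overlapped. The median log2 difference was 0.75 over the 10 genes and 0.04 over all genes.

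The hepatocyte markers gave no call in this comparison (0 of 10), with a median log2 difference of 0.41. Their summed signal was between 1097110 and 1196590 without DMSO and between 1305740 and 1996380 with it, and their part in the result was not tested. Within slide 3, CYP2E1 differed by 4.02 and ALDH2 by 1.36, and within slide 4 by 6.18 and 1.92, each against 1 D30 − DMSO array. With the slide as a block the differences were 5.04 and 1.56. Without replicate 4 of D30 − DMSO, the lowest array of CYP2E1 in that group, its difference was 4.31 (adjusted p = 1.7e-06).

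**Figure D3:**
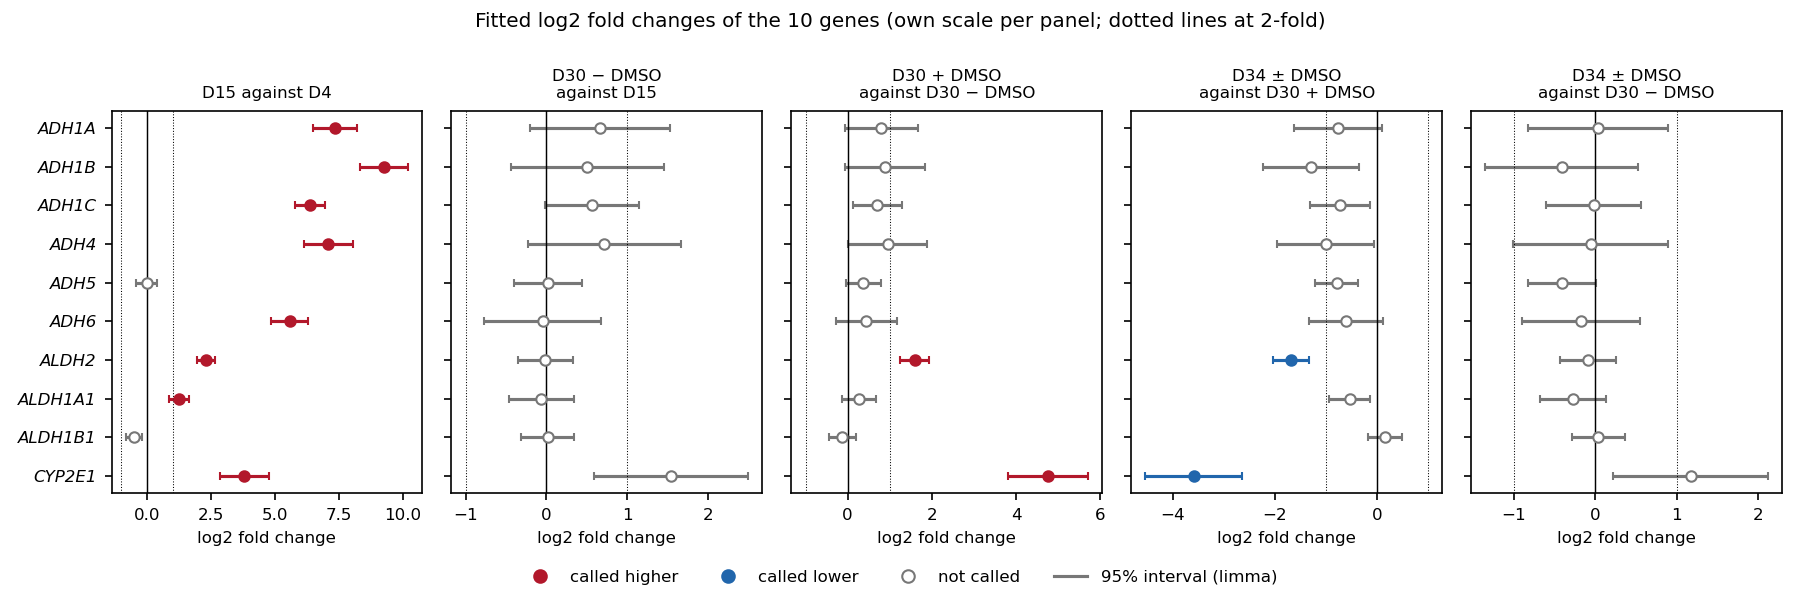
Fitted log2 fold changes of the 10 genes (x axis, own scale per panel) in the 5 comparisons, with 95% intervals from limma and dotted lines at 2-fold. For ADH1B and CYP2E1 in the D4 panel, the fitted values depend on the floor. In the D30 + DMSO panel CYP2E1 lies at 4.76 and ALDH2 at 1.60, both called higher, and in the next panel at −3.58 and −1.68, both called lower.

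The comparison of D34 ± DMSO with D30 + DMSO sets cells kept for 4 days without DMSO beside cells still in it. The groups also differ in age by these 4 days. No group was kept in DMSO up to the later age, so removal and age cannot be told apart. The comparison shares the D30 + DMSO arrays with the one above, so these 2 comparisons are not independent. CYP2E1 and ALDH2 fell, and no gene of the 10 rose, against 2.09% of all genes called lower and 4.91% called higher. CYP2E1 was 12.0-fold lower after removal (log2 −3.58, SE 0.45, adjusted p = 1.2e-05). ALDH2 was 3.21-fold lower (log2 −1.68, SE 0.16, adjusted p = 6.3e-07).

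ADH5 was 1.72-fold lower (log2 −0.78, SE 0.20, adjusted p = 0.00759), outside both thresholds. At D30 + DMSO it was at 1.90, 1.95, 1.84 and 1.37, and after removal at 1.22, 0.71, 1.13 and 0.86, so its groups did not overlap. With the slide as a block its difference was −0.84 with an adjusted p of 4.4e-04, still less than 2-fold. ADH1B was 2.45-fold lower (log2 −1.29, SE 0.45) with an adjusted p of 0.0457, and its groups overlapped. ADH4 was on average 2.00-fold lower (SE 0.45 in log2, adjusted p = 0.132), and the log2 difference of ADH1A was −0.76 (adjusted p = 0.224) and that of ADH1C −0.72 (adjusted p = 0.0727). ADH6 differed by −0.61, ALDH1A1 by −0.54 (adjusted p = 0.0544) and ALDH1B1 by 0.16. The arrays after removal lay below all arrays with DMSO for ADH1C, ADH5, ADH6, ALDH2, ALDH1A1 and CYP2E1, 6 of 10 genes against 12.6% of all genes. On the second ALDH1A1 probe the groups overlapped. The median log2 difference was −0.77 over the 10 genes and −0.07 over all genes.

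At the same time all 10 proliferation markers rose, and their summed signal went from between 4728 and 6782 intensity units to between 24320 and 34499. The hepatocyte markers gave no call (0 of 10, median log2 difference −0.28), and the part of either list in the result was not tested. Within slide 3, CYP2E1 differed by −3.56 and ALDH2 by −1.42. Within slide 4, which holds 1 D34 ± DMSO array, they differed by −4.05 and −2.06.

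Compared with cells of D30 − DMSO, the cells of D34 ± DMSO differed in none of the 10 genes by the call in limma, while 1.51% of all genes were called. These groups differ in age by 4 days as well as in their past DMSO. CYP2E1 had the largest difference of the 10 genes, 2.25-fold higher after removal (log2 1.17, SE 0.45, 95% interval of the fold 1.17 to 4.35), with an unadjusted p of 0.0184 and an adjusted p of 0.184. It was the only one of the 10 genes with an unadjusted p below 0.05, and the methods' t-test called none. Without replicate 4 of D30 − DMSO its difference was 0.72. For ALDH2 the 95% interval of the log2 difference did not reach the 1.60 seen with DMSO present, and ALDH2 was 1.06-fold lower after removal with an adjusted p of 0.953. ALDH1A1 was lower on all 4 arrays of D34 ± DMSO than on those of D30 − DMSO, with a difference of −0.27 (adjusted p = 0.622), against 6.66% of all genes that lay lower without overlap. On the second ALDH1A1 probe these groups overlapped.

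Over the 5 conditions together, the moderated F-test called 7 of the 10 genes (Bonferroni-adjusted p under 0.001, group means over 3-fold apart), against 5.31% of all genes. ADH5, ALDH1A1 and ALDH1B1 were not called. The highest and the lowest mean of ALDH2 were 14.9-fold apart and those of ADH1C 198-fold. For ADH5 they were 1.72-fold apart, between D30 + DMSO and D34 ± DMSO.

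Genes of the same pathways were described from 4 lists. Of the other alcohol and aldehyde dehydrogenases, 14 of 17 were tested. Between D4 and D15, 5 of them rose and none fell. With DMSO at D30, 4 rose: ALDH1L1, a folate enzyme, by 1.61 (SE 0.20, adjusted p = 1.5e-05), ALDH3A2, which oxidises fatty aldehydes, by 1.16, ALDH6A1, of valine breakdown, by 1.05, and ALDH5A1, of GABA breakdown, by 1.01. ALDH1A3, which makes retinoic acid in other tissues, was called lower with DMSO (adjusted p = 9.9e-04) and higher after removal (adjusted p = 1.2e-04). It was above background on 1 of 4 arrays at D30 − DMSO, on 0 of 4 at D30 + DMSO and on 1 of 4 at D34 ± DMSO, so no fold is given. After removal, ALDH1L1, ALDH6A1 and ALDH5A1 fell. ALDH3A2 differed by −0.74 (adjusted p = 4.8e-04), which is under 2-fold.

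Catalase, a further route of ethanol oxidation in peroxisomes, the electron donors of P450 enzymes and the enzymes that activate acetate formed a list of 7, of which 6 were tested. POR, the main electron donor, was not matched on the array. Between D4 and D15, 2 of them rose and none fell. Catalase (CAT) rose by 1.38 with DMSO (SE 0.17, adjusted p = 1.3e-05) and fell by 1.46 after removal. ACSS2, which activates acetate in the cytosol, rose by 1.40 with DMSO (SE 0.22, adjusted p = 1.3e-04) and fell by 1.17 after removal. The other acetate-activating genes of the list went the other way with DMSO and were not called. ACSS1 differed by −1.82 (SE 0.53, adjusted p = 0.0214, limma) and ACSS3 by −0.15.

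Of the genes of retinoid metabolism, which shares substrates with ADH and ALDH enzymes, 11 of 17 were tested. Between D4 and D15, 7 of them rose and none fell. With DMSO, RBP5, a retinol-binding protein of the cell, rose by 1.99 (SE 0.26, adjusted p = 2.7e-05) and RDH5, a retinol dehydrogenase, by 1.86 (SE 0.20, adjusted p = 3.1e-06). After removal RBP5 fell by 2.75 and RDH5 by 2.15. Among 12 transcription factors described at ADH and CYP2E1 promoters, all of them tested, 7 rose between D4 and D15, including CEBPA by 2.69. With DMSO none of the 12 was called, and after removal 1 fell, which was TEF by 1.75. None of the 4 lists held a call between D15 and D30 − DMSO or between D34 ± DMSO and D30 − DMSO.

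**Figure D4:**
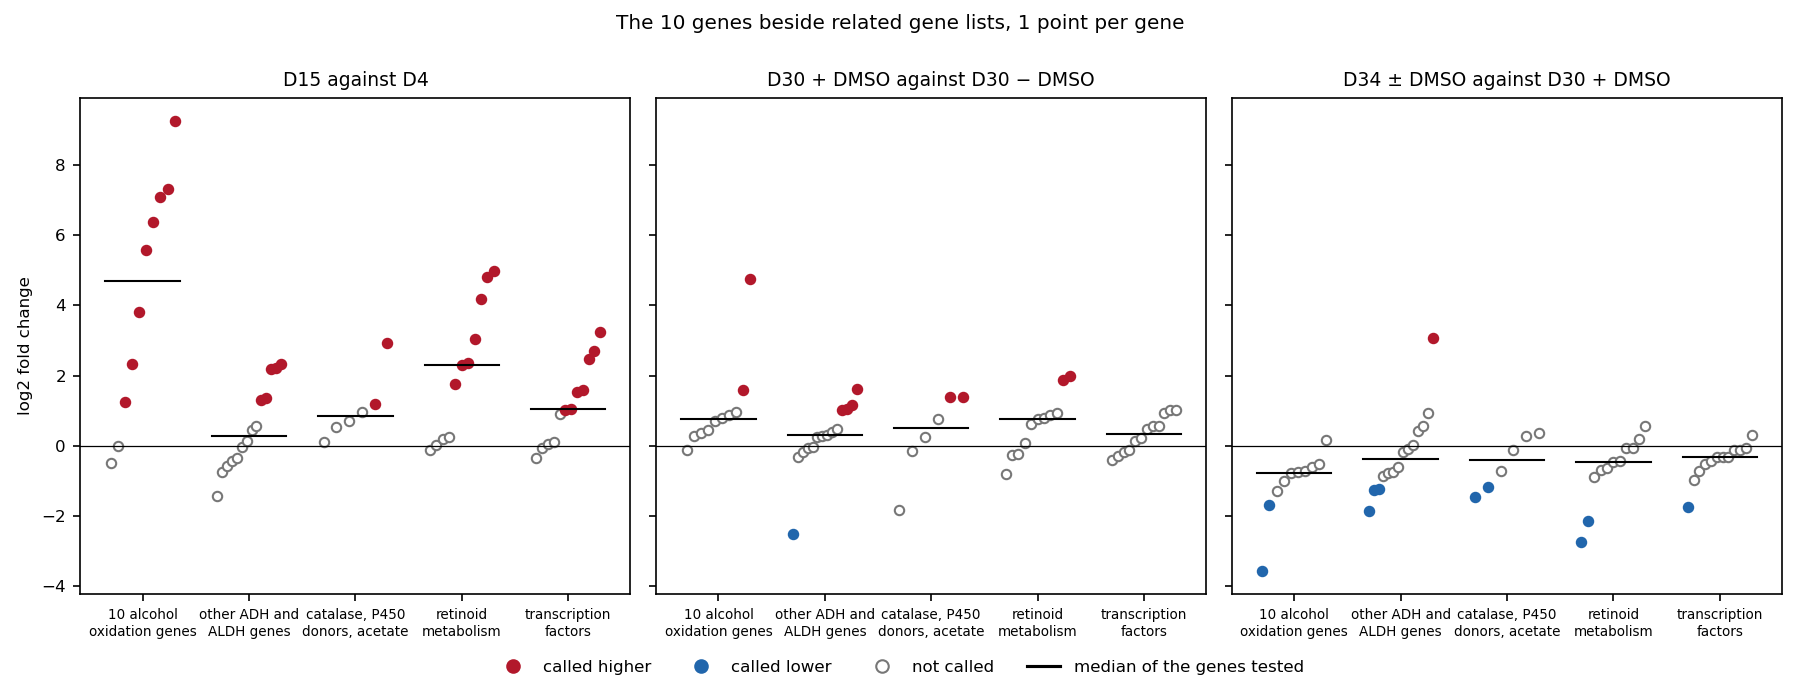
Fitted log2 fold changes (y axis) of the 10 genes and of the tested genes of 4 related lists (x axis) in 3 comparisons, 1 point per gene, with the median of each list as a line. CYP2E1 at 4.76 is the highest point of the middle panel, and ALDH1A3 is the gene called lower there. Genes not above background in a condition are drawn at their fitted value, which depends on the floor.

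The genes most like 3 of the 10 in their course over the 20 arrays were found by the Pearson correlation of log2 values, given as a description since the arrays share 5 conditions. ALDH2 was most like RDH5 (r = 0.989), PCK2 (r = 0.985), a mitochondrial enzyme of gluconeogenesis, and PCCA (r = 0.985), a mitochondrial carboxylase of propionate breakdown. ADH1B was most like KHK (r = 0.991), the ketohexokinase of fructose metabolism, a lincRNA probe (r = 0.991) and GATM (r = 0.990), an enzyme of creatine synthesis. CYP2E1 was most like a lincRNA probe (r = 0.981), SRD5A2 (r = 0.981), a steroid reductase, and a probe without a gene name (r = 0.979).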

How the data were processed

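RNA of HepaRG cells was measured on 20 one-color Agilent arrays, 4 per condition, grouped by the labels of the samples. The authors deposited the scanner output of Feature Extraction, version 10.7.3.1 in the submitters' processing notes and 10.7.1.1 in the file headers. The deposited intensity of a spot is the authors' processed signal, from which the software had removed background and spatial trends and which is on the scale of its own array. A deposited matrix holds the authors' log2 values. These were compared on the 21741 probes of the matrix that were well above background on all 20 arrays. There they equal the log2 intensity minus that of the 75th percentile, apart from 1 baseline per probe and 1 shift per array. The largest array shift was 0.11, and the median absolute difference left was 3.6e-07. The column medians of the matrix lie between −0.20 and 0.17, and what the baseline is stays unknown.

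Here, spots of a probe were averaged and divided by the 75th percentile of their array, and log2 was taken with a floor of 1 intensity unit on the common scale. A probe needed every array of 1 condition or more to be well above background (26538 of 42405 passed). Names came from RefSeq accessions (24826 probes matched a symbol), and each gene had 1 probe. Where no array of a condition measured a probe above background, the fold is a bound that is not strict, set by the dimmest signal of any probe above background. All 22221 genes were fitted in 1 linear model of 5 condition means, with Benjamini-Hochberg adjustment (limma 3.58.1 and R 4.3.3). The thresholds are those of the study's methods, which used a t-test and an analysis of variance.

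The 10 genes, the lists and the tests were chosen with earlier results of these data known. Named are the 10 genes, the called genes of each list for DMSO addition (at most 3 rises and 3 falls) and the 3 genes most like CYP2E1, ALDH2 and ADH1B. CEBPA, TEF, ALDH5A1, ACSS1 and ACSS3 were added to these after their values were seen. Of the 7 biliary markers tested, 1 rose between D4 and D15. With DMSO SOX9 rose and SPP1 fell, and after removal the reverse was called. Of 5 mesenchymal markers tested, 2 fell between D4 and D15 and none was called elsewhere. Proliferation markers gave no call with DMSO at D30, and 8 of 10 were higher at D34 ± DMSO than at D30 − DMSO.

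In simulated data with 200 of 22221 genes changed 4-fold, between 79% and 81.5% were recovered per comparison. The simulated noise was independent between arrays, without the shared deviations of a slide, and smaller changes were not simulated. Promoters were aligned with Biopython 1.88. The alternatives were quantile normalization, normexp with an offset of 50, the deposited matrix, a floor of 10, other filters, every probe, the slide, scan session or replicate number as a block, other fits and tests, other thresholds and each array left out in turn. The number of arrays limits the precision. The ChIP-seq experiments of the study were not analysed here.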

Additional observations from a re-analysis of the deposited data

Results flagged for a closer look

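Among 60 groups of 4 arrays, 1 for each of the 12 probes in each condition, 7 held an array whose gap to the nearest other array took up more of the group's whole range than Dixon's test allows at the 95% level, where chance alone would give about 1 in 20 groups. The probes share the same arrays, so the groups are not independent and this count cannot measure an excess over that rate. At D30 − DMSO, replicate 4 stood apart on 4 probes. It was low for ADH1B (0.88), for ADH4 (2.59) and for the main probe of ADH6 (−0.45), and high for the second probe of ALDH1A1 (1.93). This second ALDH1A1 probe was also high on replicate 4 of D15 (2.63). At D4, replicate 4 was high for ALDH1B1 (1.44), and replicate 1 was high for the second ADH6 probe (−4.81), on the only D4 array where that probe was well above background.

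Replicate 4 of each condition lies on slide 4. By the scan date, all arrays of this slide belong to scan session 2 and all others to session 1. Slide 4 and its scan session therefore cannot be told apart. At D30 − DMSO replicate 4 was the lowest of the 4 arrays for 8 of the 10 genes, at D34 ± DMSO for 6 and at D30 + DMSO for 5. At D4 and D15 it was the highest for 7 of the 10 genes. The share of all genes with replicate 4 lowest or highest was not counted, so whether this is particular to the 10 genes was not tested.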

How the results depend on the processing

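With only probes well above background on all 20 arrays, CYP2E1, ADH1B and ADH6 were not tested, and among the remaining 7 genes the number called was 5 between D4 and D15, 1 for DMSO addition, 1 for DMSO removal and 4 in the F-test, since fewer genes were tested. All other counts stayed within 1.5 times the values reported. Over these alternatives the counts ranged from 5 to 8, from 1 to 2, from 1 to 3 and from 4 to 7, and stayed at 0 for the 2 comparisons without calls. Leaving out each array in turn gave 8 genes between D4 and D15, 2 for DMSO addition, 2 for removal and 7 in the F-test, and 0 for the other comparisons. The third call for DMSO removal was ADH1B, at an adjusted p below 0.05 (0.0457). CYP2E1 and ALDH2 were called for DMSO addition and removal under every alternative that tested them, with log2 changes of CYP2E1 between 3.75 and 5.04 and between −3.75 and −3.07, and of ALDH2 between 1.34 and 1.69 and between −1.77 and −1.41. Of the values of single genes, 1129 stayed on their side of the thresholds, 5 lost and 1 gained a call, and none of the called values changed sign. Over all genes, the calls for D4 to D15, DMSO addition, DMSO removal and D34 ± DMSO against D30 − DMSO went from 2093, 1304, 1554 and 336 to 1377, 655, 852 and 263 with normexp and to 1104, 581, 490 and 41 in the methods' t-test after Benjamini-Hochberg.

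Arrays of the same replicate number deviated together with a median r of 0.26 (lowest −0.31), against a median of −0.16 for other numbers. Whether the numbers pair the arrays cannot be told from this, since replicate 4 of every condition lies on slide 4. With the replicate block, 8, 2 and 2 genes were called for D4 to D15, DMSO addition and removal, and 7 in the F-test, and the block changed no call. Arrays of the same slide had a median r of 0.38, against −0.17 for other slides. Leaving out the 7 arrays of slide 4 and taking differences within slides were added after the data were seen. Signals near background at D4 limit the D4 to D15 changes of CYP2E1, ADH1B and ADH6.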
